A study of Mus musculus with 12 samples.

Results

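The vacuolar proton pump genes examined here are 10 genes that encode subunits of the vacuolar-type ATPase (V-ATPase) or a protein that accompanies it, and the data are ATAC-seq peaks in mouse cortical neurons. Of the listed genes, 6 encode the soluble V1 sector (Atp6v1a, Atp6v1b2, Atp6v1c1, Atp6v1d, Atp6v1e1 and Atp6v1h), 3 the membrane-bound V0 sector (Atp6v0a1, Atp6v0c and Atp6v0d1), and Atp6ap1 encodes an accessory protein. The peaks of all libraries were merged wherever they overlapped, and the regions lying in the body of a listed gene or within 5 kb upstream of one of its start sites (GENCODE vM21, GRCm38) were taken as its regions. This gave 64 of 263785 regions, belonging to 9 of the 10 genes. Atp6v1c1 was not analysed here.

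ATAC-seq marks accessible chromatin, because the Tn5 transposase cuts DNA where nucleosomes leave it exposed. Primary cortical neurons came from E18 embryos of wild-type C57BL/6 mice, so all 4 groups share 1 genotype. The neurons received the PBS vehicle, pre-formed fibrils of alpha-synuclein (PFF), PFF with the LRRK2 kinase inhibitor MLi-2, or PFF with antisense oligonucleotides against the endosomal GTPase Rab5 (Rab5 ASO), over 7 days. MLi-2 covered the last 5 days and the Rab5 ASO the last 3 days. Each group had 3 replicate libraries, there was no group with MLi-2 or the Rab5 ASO and no PFF, and no group with a control oligonucleotide was analysed here. Per the study's methods, 1 pregnancy counted as 1 biological replicate and its cultures were spread at random over the groups, but the labels do not say which library came from which pregnancy.

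The V-ATPase is a rotary machine that acidifies lysosomes, endosomes and synaptic vesicles. ATP hydrolysis in the V1 sector turns a central stalk, and the turning ring of the V0 sector carries protons across the membrane. In neurons the gradient it makes drives both the filling of synaptic vesicles with transmitter and the digestion of proteins in lysosomes. Many of its genes belong to a set of lysosomal genes that the transcription factor TFEB can bind at an E-box, the palindrome CACGTG.

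The promoters were searched for that palindrome in RefSeq promoter sequences of GRCm38.p6, which run from 250 bases before to 50 bases after a start site. Entries were found for 7 members (Atp6v1a, Atp6v1d, Atp6v1e1, Atp6v0a1, Atp6v0c, Atp6v0d1 and Atp6ap1), that of Atp6v0a1 at an internal start site. CACGTG, which reads the same on both strands, was present in 2 of them, Atp6v1a and Atp6v0d1, and in 7.15% of all 32851 promoters of that length. In both it lay within the longer palindrome TCACGTGA, which contains CACGTG and was found in 0.97% of all promoters. The 2 sites are shown because they are the places in the searched entries that the known TFEB motif matches. The promoters of Atp6v1b2 and Atp6v1h and the main start of Atp6v0a1 were not searched. Capitals mark CACGTG, and both sequences read along the minus strand in the direction of transcription.

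Atp6v1a, chr16:44139373-44139402: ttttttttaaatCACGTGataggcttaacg

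Atp6v0d1, chr8:105566050-105566079: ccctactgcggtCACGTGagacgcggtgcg

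The first capital of the Atp6v1a site lay at position -131 from the RefSeq start site, and that of the Atp6v0d1 site at position -3, so that the latter palindrome spans the start. Both sites lay inside the peak regions at the gene starts described below. Among 18 further pump and assembly genes with an entry, 4 held CACGTG (Atp6v0b, Atp6v0e, Ccdc115 and Vma21). The ETS-type motif CCGGAAG, searched on both strands, was present in the entries of 2 members (Atp6v1d and Atp6v1e1) and in 8.86% of all promoters. The GC box GGGCGG was present, on either strand, in the entries of 5 members (Atp6v1d, Atp6v1e1, Atp6v0a1, Atp6v0c and Atp6ap1) and in 35.66% of all promoters. The 9 entries of the members had a median ratio of observed to expected CpG dinucleotides of 0.79, against 0.38 over all promoters, so they were rich in CpG. Genes were counted when any of their entries matched, and Atp6v0c had several entries, whereas the shares are over single entries. A match of letters is a description of the sequence and not evidence that a factor was bound.

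The promoter of Atp6ap1 is shown as the member whose start-site peak ranked highest in height (chrX:74296847-74297096, plus strand, ending at the base before the start site). It held no CACGTG.

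Atp6ap1 upstream: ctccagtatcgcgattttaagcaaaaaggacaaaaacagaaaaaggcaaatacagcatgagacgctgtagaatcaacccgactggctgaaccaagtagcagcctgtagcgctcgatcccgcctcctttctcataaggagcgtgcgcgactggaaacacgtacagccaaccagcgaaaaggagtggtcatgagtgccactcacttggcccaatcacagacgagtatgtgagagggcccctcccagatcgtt

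All 9 analysed pump genes were accessible at a start site in every library. The start-site region of a gene was defined as the region within 1 kb of a protein-coding start site with the highest mean percentile of fold enrichment, where the percentile is the rank of a peak among the peaks of its own library (100 is the highest peak). Each of the 9 genes had a peak in that region in 12 of 12 libraries, against 61.4% of 21938 protein-coding genes. That share counts genes in stretches of over 300 kb without any listed peak, which the member set leaves out. The median over the 9 genes of the mean percentile was 98.6, against a median of 90.7 over all protein-coding genes with such a region. In 24 other pump and assembly genes, the start-site region had a peak in 12 of 12 libraries for 20 genes, with a median percentile of 93.5. Among these, Atp6ap2, the other accessory subunit gene, ranked at 99.6, whereas Atp6v1b1, a paralog of Atp6v1b2 known from kidney and inner ear, ranked at 41.8 and had a peak in 11 libraries. Atp6v1g3 and Atp6v0d2, also known from other tissues, had no start-site peak in any library. These differences between gene sets are descriptions, and no test was made of them.

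The height order of the start-site regions was Atp6ap1, Atp6v1h and Atp6v0a1 at the top (99.6 for each, as the mean of 12 libraries), followed by Atp6v1e1 (98.6), Atp6v1d (98.6), Atp6v1b2 (98.0), Atp6v0d1 (96.2), Atp6v0c (87.3) and Atp6v1a (83.6). From Atp6ap1 down to Atp6v1b2 the ranges over libraries of neighbours overlapped, as did those of Atp6v1b2 (96.5 to 99.7) and Atp6v0d1 (94.6 to 97.5). Atp6v0c (83.8 to 90.8) lay below Atp6v0d1 without overlap, and its range overlapped that of Atp6v1a (78.2 to 88.5). The pileup at the summit, the number of overlapping fragments there, ran from 41 to 81 over the 9 start-site regions and all libraries.

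**Figure D1:**
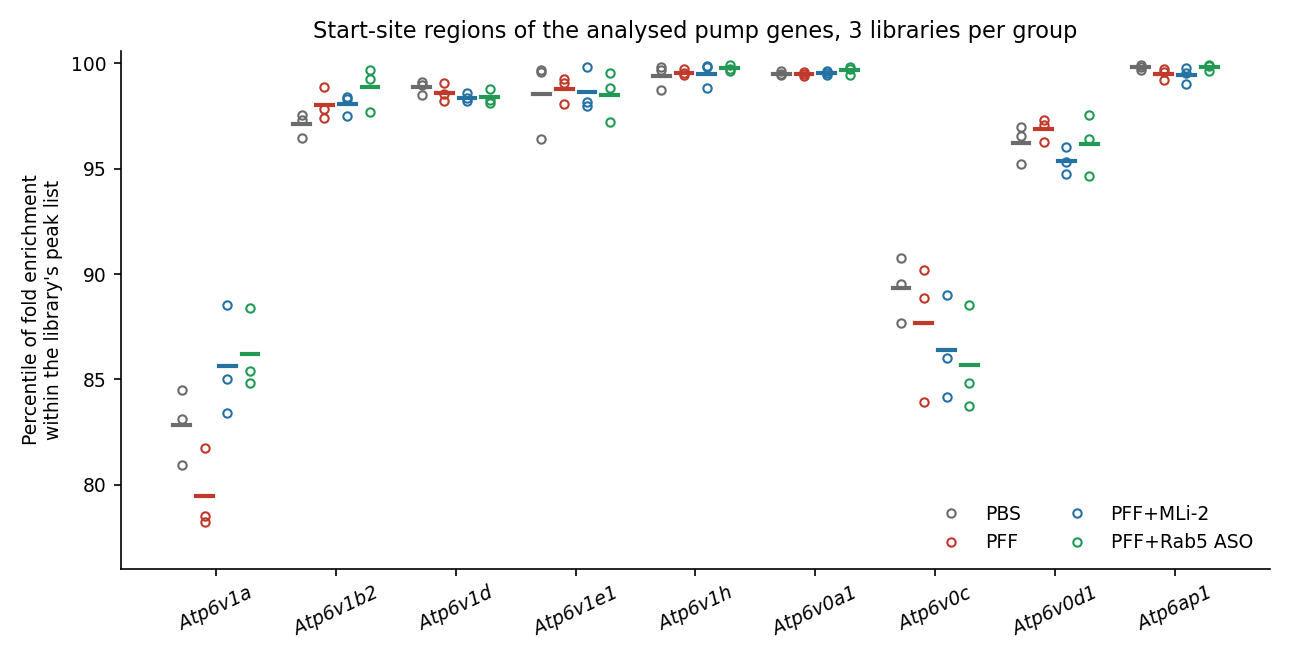
Percentile of fold enrichment within each library's peak list (y axis, from 76 to 100) at the start-site region of each analysed gene (x axis). Open circles are single libraries, horizontal bars are group means (3 libraries per group) and colours are the 4 groups. Atp6v1a and Atp6v0c sit between 78.2 and 90.8, and the other genes lie above 94.

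In the V1 sector, Atp6v1a encodes the A subunit that hydrolyses ATP. Its start-site region (chr16:44139196-44140449, GRCm38, 1254 bp wide) overlaps an exon of the gene and also an exon of the neighbouring gene Naa50, so the signal cannot be assigned to 1 of the genes. The percentiles were 83.1, 81.0 and 84.5 with PBS, 81.7, 78.5 and 78.2 with PFF, 83.4, 88.5 and 85.0 with PFF+MLi-2, and 88.4, 85.4 and 84.8 with PFF+Rab5 ASO. The group means were 82.9 ± 1.80, 79.5 ± 1.95, 85.6 ± 2.64 and 86.2 ± 1.90 (SD, n = 3). The PFF libraries lay lowest, without overlap with either treated group, but overlapped the PBS libraries. Before ranking, the fold enrichment was 8.05, 7.84 and 7.96 with PFF and 8.45, 8.33 and 7.67 with PFF+Rab5 ASO, which overlap, whereas the PFF+MLi-2 values of 8.28, 9.08 and 8.24 lay above PFF. The pileups overlapped between all groups (59 to 68 with PFF, 61 to 68 with PFF+MLi-2 and 61 to 71 with PFF+Rab5 ASO).

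Atp6v1b2 encodes the B2 subunit, the form of the B subunit found in brain, which pairs with the A subunit in the catalytic ring. Its start-site region (chr8:69088514-69089015) also overlaps an exon of Slc18a1. The percentiles were 97.5, 96.5 and 97.3 with PBS, 97.4, 97.8 and 98.9 with PFF, 98.3, 97.5 and 98.4 with PFF+MLi-2, and 99.3, 99.7 and 97.7 with PFF+Rab5 ASO. The libraries with PFF+Rab5 ASO lay above all PBS libraries and overlapped those with PFF.

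Atp6v1d encodes the D subunit of the rotating central stalk. The percentiles at its start site (chr12:78861408-78862343, which also overlaps an exon of Eif2s1, a translation initiation factor gene) lay between 98.1 and 99.1 in all 12 libraries. The group means were 98.9 ± 0.321 with PBS, 98.6 ± 0.413 with PFF, 98.4 ± 0.192 with PFF+MLi-2 and 98.4 ± 0.366 with PFF+Rab5 ASO (SD, n = 3). No group stood apart from PFF.

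Atp6v1e1 encodes the E1 subunit of the peripheral stalks that hold the catalytic ring still. Its start-site region (chr6:120822282-120822953) ranked from 96.4 in PBS replicate 2 to 99.8 in PFF+MLi-2 replicate 2. The group means were 98.6 ± 1.88, 98.8 ± 0.631, 98.6 ± 1.01 and 98.5 ± 1.19 in the order PBS, PFF, PFF+MLi-2 and PFF+Rab5 ASO (SD, n = 3), which differ by less than the spread within any group.

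Atp6v1h encodes the regulatory H subunit, which is needed for ATP-driven pumping. Its start-site region (chr1:5082957-5083584) ranked from 98.7 to 99.9. The group means were 99.4 ± 0.593 with PBS, 99.6 ± 0.147 with PFF, 99.5 ± 0.593 with PFF+MLi-2 and 99.8 ± 0.139 with PFF+Rab5 ASO (SD, n = 3). A region 257 bp inside another annotated start site of the gene (chr1:5070275-5070543, region 1) had a peak in all 12 libraries too, at percentiles of 91.1 to 99.9. It overlaps an exon of the neighbouring gene Rgs20 and lies within 1 kb of a start site of Rgs20.

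In the V0 sector, Atp6v0a1 encodes the a1 subunit, a form common in neurons of the subunit through which protons enter and leave the ring. Its start-site region (chr11:101009238-101009631) had percentiles of 99.4 to 99.8 and group means of 99.5 ± 0.095 with PBS, 99.5 ± 0.085 with PFF, 99.5 ± 0.10 with PFF+MLi-2 and 99.7 ± 0.202 with PFF+Rab5 ASO (SD, n = 3).

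Atp6v0c encodes the c subunit, the proteolipid that forms most of the rotating ring. The percentiles at its start site (chr17:24169336-24170001) were 90.8, 87.7 and 89.5 with PBS, 88.9, 83.9 and 90.2 with PFF, 89.0, 86.0 and 84.2 with PFF+MLi-2, and 84.8, 83.8 and 88.5 with PFF+Rab5 ASO. All 4 groups overlapped. A region at the 3' end of the gene (chr17:24163260-24163938), which also overlaps an exon of Amdhd2, was as high as the start-site region, at percentiles of 82.8 to 92.1.

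Atp6v0d1 encodes the d1 subunit, which couples the central stalk to the ring. Its start-site region (chr8:105565585-105566533, which also overlaps an exon of the annotated gene Gm38250) ranked at 96.5, 95.2 and 97.0 with PBS, 96.3, 97.1 and 97.3 with PFF, 94.8, 96.0 and 95.3 with PFF+MLi-2, and 94.6, 97.5 and 96.4 with PFF+Rab5 ASO. The PFF+MLi-2 libraries lay below the PFF libraries without overlap and overlapped the PBS libraries.

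Atp6ap1 encodes Ac45, an accessory protein that takes part in assembly and targeting of the pump. Its start-site region (chrX:74296830-74297452) ranked at 99.8 ± 0.110 with PBS, 99.5 ± 0.271 with PFF, 99.4 ± 0.378 with PFF+MLi-2 and 99.8 ± 0.160 with PFF+Rab5 ASO (SD, n = 3), and all groups overlapped.

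Away from the starts the picture was sparser. Of the 64 member regions, 21 (32.8%) had a peak in all 12 libraries, against 27.5% of all regions. They included the 9 start-site regions, 5 of 17 further regions within 1 kb of a start site and 7 of 38 regions farther away. A single library accounted for 14 member regions (21.9%), against 26.6% of all regions. The regions farther from a start site had a median percentile of 32.8 and a median pileup of 18 fragments, against 63 at the start-site regions. Atp6v0a1 had the most regions (16), Atp6v0d1 had 10, Atp6v1a 9, Atp6v1h 8, Atp6v1e1 6, Atp6v1b2 5, Atp6v0c 4, and Atp6v1d and Atp6ap1 3 each.

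Several distal regions were open throughout. In Atp6v0d1 an intronic region 11.6 kb into the gene (chr8:105554168-105554449) ranked from 77.0 to 91.3 in the 12 libraries. In Atp6v1a an intronic region 15.4 kb into the gene (chr16:44123428-44123646, region 5 of the gene) ranked at 93.0, 66.8 and 80.5 with PBS, 91.0, 80.1 and 78.8 with PFF, 48.0, 66.0 and 74.8 with PFF+MLi-2, and 79.3, 86.5 and 82.5 with PFF+Rab5 ASO. The PFF+MLi-2 libraries lay below the PFF libraries there, and the range within PBS was as wide as that step.

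**Figure D2:**
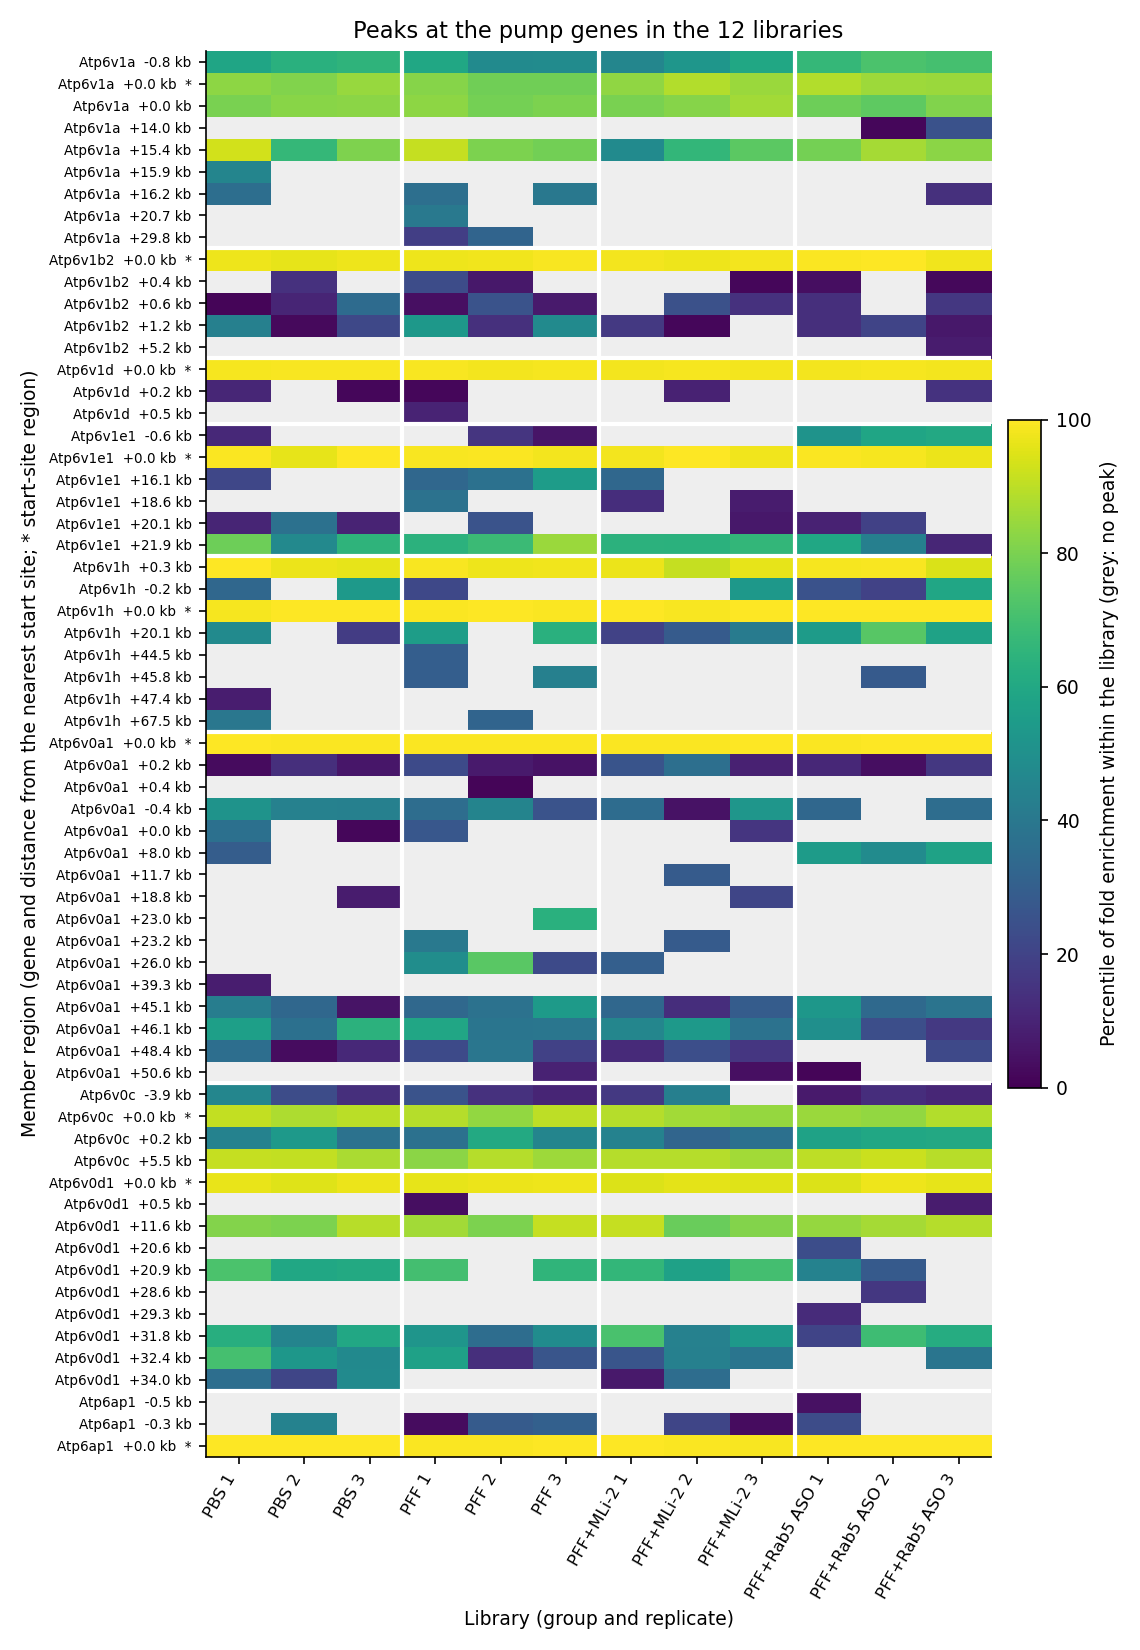
Percentile of fold enrichment (colour, 0 to 100) for the 64 member regions (rows, labelled with the distance from the nearest protein-coding start site in kb) in the 12 libraries (columns, by group). Grey cells have no peak. The rows marked with an asterisk are the 9 start-site regions, which are filled in every library, whereas most of the other rows are filled only in part.

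The number of member regions with a peak ran from 32 to 42 per library with PBS, 36 to 45 with PFF, 32 to 35 with PFF+MLi-2 and 32 to 37 with PFF+Rab5 ASO, and these ranges overlapped except that PFF+MLi-2 lay below PFF. PFF+MLi-2 also lay below PFF over the whole genome, where a library with PFF+MLi-2 had a peak in 46.1% to 46.9% of all regions and one with PFF in 49% to 56%. There it lay below PFF+Rab5 ASO too (50% to 58.7%). The libraries held 137417 to 184717 peaks in all. The depth of sequencing is not given in the peak lists, and a relative depth worked out from the background of each list was 0.775 to 0.919 with PFF, 0.912 to 0.976 with PBS, 0.957 to 1.03 with PFF+MLi-2 and 1.05 to 1.31 with PFF+Rab5 ASO, scaled to a mean of 1. The smallest peak width was 53 to 59 bp with PFF+Rab5 ASO and 62 to 66 bp in the other groups. Depth and peak width therefore moved with the Rab5 ASO, and depth was also higher in each PFF+MLi-2 library than in any PFF library. Their part in the results was not tested. The start sites of all 8 neuronal marker genes and of 3 of 3 inhibitory neuron markers had a peak in all 12 libraries, as did 3 of 5 astrocyte and 4 of 6 oligodendrocyte-lineage markers, while 0 of 6 microglial and 0 of 3 endothelial markers did. The share over all protein-coding genes was 61.4%. Where a marker had a start-site region, the median percentile was 74.8 for neuronal and 52.6 for inhibitory neuron markers. It was 72.6 for astrocyte, 73.9 for oligodendrocyte-lineage, 24 for microglial and 16.6 for endothelial markers.

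The main question of the design was whether PFF changed accessibility at these genes. No height difference at a pump gene passed the threshold. Height was compared with limma on normal scores of the rank of fold enrichment across the 72465 regions called in each of the 12 libraries, and an effect is a difference in that score, in units of its SD. In PFF vs PBS, 0 of 21 member regions passed an adjusted p of 0.05, against 0% of all regions, and 0 had an unadjusted p below it, against 9.72% of all regions. The smallest adjusted p of a member was 0.602. The effects ran from -0.41 to 0.42 over the 21 regions, with a median of -0.08, against a median of -0.02 over all regions. At the 9 start sites the effects ran from -0.34 to 0.18, and the 95% intervals all included 0. They were -0.85 to 0.16 at Atp6ap1, -0.29 to 0.65 at Atp6v1b2, -0.48 to 0.40 at Atp6v0a1 and -0.38 to 0.52 at Atp6v0d1.

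The 5 largest PFF vs PBS effects among the members were at distal as well as start-site regions. An intronic region of Atp6v0a1 45.1 kb into the gene (chr11:101056886-101057190, region 13) ranked at 42.3, 33.3 and 5.36 with PBS and at 33.6, 37.8 and 54.4 with PFF. Its effect was 0.42 ± 0.313 (SE, limma, adjusted p = 0.711), with 1 PBS library far below the other 2.

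The region 0.8 kb upstream of Atp6v1a (chr16:44140506-44140789, region 1), which lies on the side of Naa50, ranked at 58.9, 63.6 and 65.0 with PBS and at 59.6, 47.8 and 48.2 with PFF (effect -0.41 ± 0.228, SE, limma, adjusted p = 0.602). An intronic region of Atp6v0d1 31.8 kb into the gene (chr8:105534072-105534256) ranked at 62.6, 44.9 and 60.1 with PBS and at 52.2, 35.8 and 48.6 with PFF (effect -0.39 ± 0.228, SE, limma, adjusted p = 0.628). The other 2 were the start-site region of Atp6ap1 (-0.34 ± 0.226, SE, limma, adjusted p = 0.671) and the 3' region of Atp6v0c shared with Amdhd2 (-0.31 ± 0.215, SE, limma, adjusted p = 0.693). In all 5 the PFF and PBS libraries overlapped. No member region had groups that did not overlap in this comparison, against 8.25% of all regions that lay higher and 6.38% that lay lower with PFF.

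**Figure D3:**
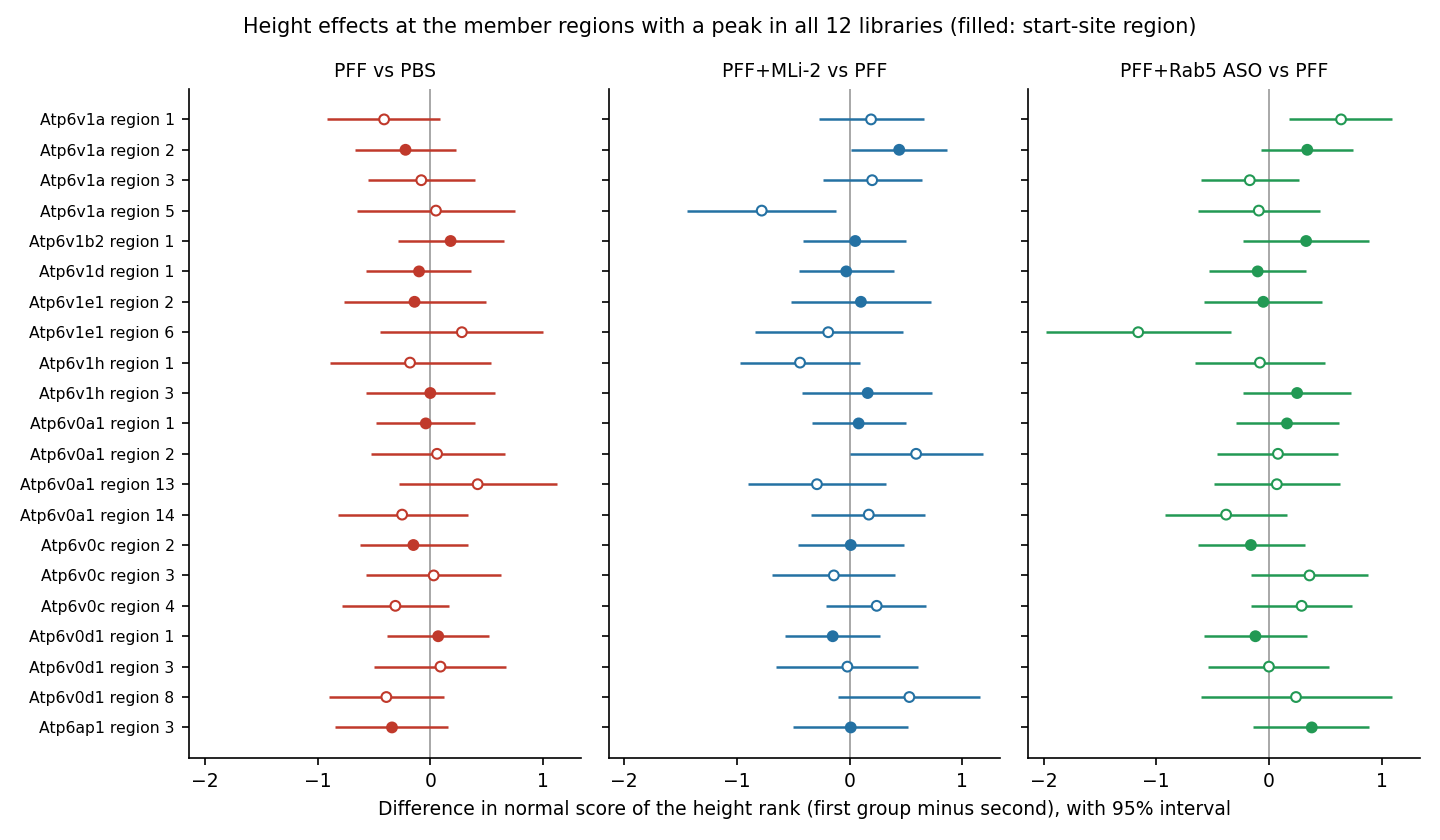
Difference in the normal score of the height rank (x axis, first group minus second) for the 21 member regions called in every library (y axis), in 3 comparisons of 3 libraries against 3. Points are limma estimates, lines are 95% intervals, and filled points are start-site regions. In PFF vs PBS every interval includes 0, and no effect in the 3 panels passed an adjusted p of 0.05.

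Adding MLi-2 to PFF addressed whether the LRRK2 inhibitor shifted these regions. In PFF+MLi-2 vs PFF, 0 of 21 member regions passed the threshold, against 0% of all regions (limma). Of the 21, 2 had an unadjusted p below 0.05, both in Atp6v1a, against 11.4% of all regions. The start-site region had an effect of 0.44 (95% interval 0.01 to 0.86, limma, adjusted p = 0.429), higher in 3 of 3 libraries than any PFF library. The intronic region 5 had an effect of -0.78 (95% interval -1.44 to -0.12, limma, adjusted p = 0.375). Neither passed the correction. The count of 2 members fell to 0 without PFF+MLi-2 replicate 1 (10% of all regions). It was 1 without each PFF replicate in turn (8.9% to 10.4%). Of the 21 member regions 1 lay higher without overlap (the Atp6v1a start site), against 5.23% of all regions, and 4 lay lower, against 12.9%. The 4 were Atp6v1a region 5, Atp6v1h region 1 near another annotated start, Atp6v0a1 region 13 and the start site of Atp6v0d1. They were named after their values were seen.

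In PFF+MLi-2 vs PBS, which asks how far the treated neurons stood from the vehicle, 0 of 21 member regions passed the limma threshold, against 0% of all regions, and 0 had an unadjusted p below 0.05, against 5.77% of all regions. No member region lay higher or lower without overlap, against 3.12% and 7.48% of all regions. At the 9 start sites the effects ran from -0.33 to 0.23.

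In PFF+Rab5 ASO vs PFF, 0 of 21 member regions passed the limma threshold, against 3.83% of all regions. That background of 2772 regions depended on single libraries, falling to 0 without PFF+Rab5 ASO replicate 1 and to at most 995 without any 1 of the libraries. Of the 21, 2 had an unadjusted p below 0.05, against 21.1% of all regions, and without PFF+Rab5 ASO replicate 1 the count was 5, against 18.6% of all regions. One was an intronic region of Atp6v1e1 21.9 kb into the gene (chr6:120796172-120796454, region 6). It ranked at 77.9, 47.1 and 65.1 with PBS, 64.3, 68.2 and 85.0 with PFF, 64.2, 64.0 and 66.1 with PFF+MLi-2, and 59.5, 43.2 and 10.7 with PFF+Rab5 ASO. The Rab5 ASO libraries lay below the PFF libraries, with 1 library far below the others, and the effect was -1.16 (95% interval -1.98 to -0.34, limma, adjusted p = 0.107).

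The other was the upstream region 1 of Atp6v1a, with 66.7, 71.8 and 70.5 under PFF+Rab5 ASO and an effect of 0.64 (95% interval 0.18 to 1.09, limma, adjusted p = 0.109). At the 9 start sites the effects ran from -0.16 at Atp6v0c to 0.38 at Atp6ap1, and the smallest adjusted p was 0.322. Of the 21 regions 3 lay higher without overlap (Atp6v1a regions 1 and 2 and the 3' region of Atp6v0c near the Amdhd2 start), against 13.9% of all regions. Of the same 21, 1 lay lower (Atp6v1e1 region 6), against 11.9%.

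In PFF+Rab5 ASO vs PBS, 0 of 21 member regions passed the limma threshold, against 1.63% of all regions. The 1184 regions behind that share fell to between 0 and 35 without any 1 library and to 0 with a replicate block. Of the 21, 2 had an unadjusted p below 0.05, against 18.7% of all regions (Atp6v1e1 region 6, effect -0.88, and the intronic region of Atp6v0a1 46.1 kb into the gene, effect -0.63). This count was 0 without PBS replicate 1 (17.6% of all regions) and 4 without PBS replicate 2 (17.1%). The start site of Atp6v1b2 had the largest start-site effect, 0.51 (95% interval -0.03 to 1.06, limma, adjusted p = 0.299). Of the 21 regions 4 lay higher without overlap, against 13.3% of all regions, and 0 lay lower, against 9.03%. The 4 were the start sites of Atp6v1b2 and Atp6v1a, Atp6v1a region 1 and a region just inside Atp6v0c (chr17:24168801-24169253). The comparisons share the PFF or PBS libraries, so their values are not independent of each other.

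Over all 4 groups at once, the limma F test called 0 of 21 member regions, against 3.5% of all regions, and 2 had an unadjusted p below 0.05, against 21.7%. Without 1 library the latter count ran from 1 (for example without PBS replicate 3, 21.3% of all regions) to 4 (without PFF+MLi-2 replicate 3, 21.1%). The 2535 regions called over all fell to between 277 and 2206 without 1 library, lowest without PFF+Rab5 ASO replicate 3. The smallest adjusted p was 0.146, at Atp6v1e1 region 6. Among the 24 other pump and assembly genes, 0 of 50 tested regions passed in any of the 5 comparisons or in the F test (limma), and 2 to 6 of the 50 had an unadjusted p below 0.05 in the 5 comparisons, against 5.77% to 21.1% of all regions. In PFF vs PBS their median effect was -0.09, close to the -0.08 of the members.

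Presence and absence of peaks was counted separately, since a region missing from a group cannot be ranked. A region was counted as gained when 3 of 3 libraries of the first group and 0 of 3 of the second had a peak, and as lost in the reverse case. With 3 libraries against 3, no exact test can give a p below 0.1, and no test was made. In PFF vs PBS 1 of 57 member regions was gained, against 1.1% of all regions, and 1 was lost, against 0.405%. In PFF+MLi-2 vs PFF 0 of 54 were gained, against 0.374%, and 0 lost, against 1.64%. In PFF+Rab5 ASO vs PFF 1 of 58 was gained, against 2.64%, and 2 were lost, against 1.94%. In PFF+MLi-2 vs PBS 0 of 50 were gained, against 0.225%, and 0 lost, against 0.577%. In PFF+Rab5 ASO vs PBS 0 of 54 were gained, against 2.59%, and 1 was lost, against 0.991%. With 50 to 58 regions per comparison and counts of 0 to 2 throughout, the members cannot be told apart from these backgrounds.

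These calls rested on 4 small regions in 3 genes, and none was at a protein-coding start site. Of these, 3 are shown in full, in the direction of transcription, because their calls in the 5 comparisons ran from all libraries of one group to none of the other, and they lie outside annotated exons. None held CACGTG.

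Atp6v0a1 region 11, chr11:101037843-101037981, plus strand: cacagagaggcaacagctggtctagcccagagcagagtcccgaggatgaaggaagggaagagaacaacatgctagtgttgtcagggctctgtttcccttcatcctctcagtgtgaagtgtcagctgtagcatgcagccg

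Atp6v0a1 region 6, chr11:101019859-101019986, plus strand: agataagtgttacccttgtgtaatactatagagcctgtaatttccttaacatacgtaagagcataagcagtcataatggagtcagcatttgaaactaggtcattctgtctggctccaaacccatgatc

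Atp6v0d1 region 10, chr8:105531905-105532009, minus strand: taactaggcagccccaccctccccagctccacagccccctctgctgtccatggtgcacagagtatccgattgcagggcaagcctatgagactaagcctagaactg

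Atp6v0a1 region 11 is intronic, 26 kb from the start. It was called in PFF replicates 1, 2 and 3 with pileups of 13, 18 and 10 fragments, in PFF+MLi-2 replicate 1 with 12, and in no library with PBS or PFF+Rab5 ASO. It was thus gained with PFF and lost with the Rab5 ASO. Its percentiles with PFF were 48.8, 74.3 and 22.6.

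Atp6v0d1 region 10 is intronic, 34 kb from the start. It was called in the PBS libraries with pileups of 15, 12 and 16, in PFF+MLi-2 replicates 1 and 2 with 12 and 15, and in no library with PFF or PFF+Rab5 ASO. It was thus lost with PFF and was present in 2 of 3 libraries with MLi-2.

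Atp6v0a1 region 6 is intronic, 8 kb from the start. It was called with pileups of 15, 13 and 15 in the PFF+Rab5 ASO libraries and 11 in PBS replicate 1. The remaining 8 libraries had no peak there.

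Atp6v1e1 region 3 (chr6:120802165-120802276), 16.1 kb from a protein-coding start, lies in an exon of a retained-intron transcript. It was called with pileups of 14, 13 and 15 with PFF, 12 in PBS replicate 1 and 13 in PFF+MLi-2 replicate 1, and in no PFF+Rab5 ASO library. All peaks in the 4 regions held 10 to 18 fragments at the summit, and 16 of these 18 peaks lay below the lowest library median of 16 fragments over all peaks. An uncalled library can hold a few fragments fewer, so absence of a peak here means that none was called at this depth.

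**Figure D4:**
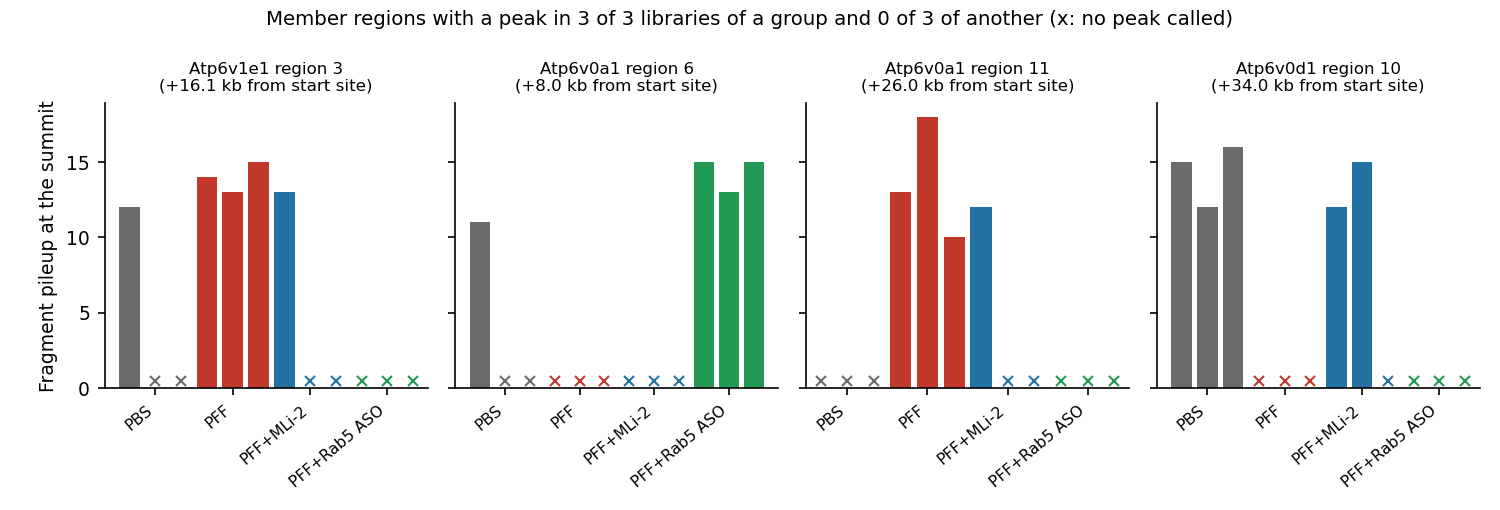
Fragment pileup at the summit (y axis, fragments) in the 12 libraries for the 4 member regions that were gained or lost in a comparison, 3 bars per group in replicate order. Crosses mark libraries with no peak called. Pileups lie between 10 and 18 wherever a peak was called.

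In the other pump and assembly genes, PFF vs PBS gained 1 of 154 regions, assigned to Atp6v0e, and lost 1, in Atp6v1g3. The Atp6v0e region had a peak in 3 of 3 libraries with PFF and with PFF+Rab5 ASO and in none with PBS or PFF+MLi-2. In PFF+MLi-2 vs PFF 0 of 140 were gained and 2 were lost, in Atp6v0e and Wdr7, and in PFF+MLi-2 vs PBS 0 of 143 were gained and 1 was lost, in Wdr7. In PFF+Rab5 ASO vs PFF 5 of 154 regions were gained, in Oxr1 and Wdr7, and 4 were lost, in Oxr1, Tcirg1 and Wdr7. In PFF+Rab5 ASO vs PBS 7 of 158 were gained, in Atp6v0e, Atp6v1c2, Oxr1 and Wdr7, against 2.59% of all regions, and 2 were lost, in Tcirg1 and Tmem199. Over all regions 1.1% were gained and 0.405% lost in PFF vs PBS, 1.64% were lost in PFF+MLi-2 vs PFF, 0.577% were lost in PFF+MLi-2 vs PBS, 2.64% were gained and 1.94% lost in PFF+Rab5 ASO vs PFF, and 0.991% were lost in PFF+Rab5 ASO vs PBS.

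The mean normal score over the 9 start-site regions was 1.65 to 1.79 with PBS, 1.59 to 1.71 with PFF, 1.67 to 1.73 with PFF+MLi-2 and 1.65 to 1.83 with PFF+Rab5 ASO. Among 12241 start-site regions of genes outside the pump lists, those whose scores followed this mean most closely over the 12 libraries were Unc5b, a netrin receptor gene (Pearson r = 0.94), Smg1, a kinase gene of nonsense-mediated decay (r = 0.94), and Smpd3, a sphingomyelinase gene (r = 0.93). These are the highest of 12241 values over libraries that differ in depth, and they are given as a description.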

How the data were processed

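ATAC-seq was analysed in 12 libraries, 3 in each of 4 groups named from the titles. For the libraries with MLi-2 or the Rab5 ASO, a description field gives PBS while the titles give PFF, which was taken. Per the submitters' processing notes, the authors used Trim Galore 0.6.7, Bowtie2 2.5.1 and MACS2 2.2.7.1 with GRCm38. Each library has its own peak list and none was pooled. The MACS2 options, the handling of duplicates and any Tn5 shift are not given in the sources used here, and each would alter peak widths and heights. The deposited lists hold, per peak, a score, a fold enrichment (the ratio over background) and p- and q-values as -log10, all made by the authors within 1 library, so heights were compared as ranks. The total read number per library was not used here, and the precision of a height is limited by the pileup behind it.

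From these values, peaks were merged at an overlap of at least 1 bp and assigned to genes with GENCODE vM21. Summit pileups were recovered from fold and -log10 p-value, and came out whole within 0.001 of the -log10 p-value for 100% of peaks. Height was tested with limma 3.58.1 (R 4.3.3) on normal scores of ranks over 72465 regions, on the 6 libraries of a comparison with no covariate, with Benjamini-Hochberg adjustment over all regions; the step was tested on simulated data. Other steps used Python 3.11.15, pandas 2.3.3, numpy 2.4.6, scipy 1.17.1 and matplotlib 3.10.9. The text names all 10 members, member regions that were gained, lost or called, and the 5 with the largest PFF vs PBS effect; others were named after their values were seen. Members, gene lists and tests were chosen with earlier results of these data known. Alternatives were a replicate block, all 12 libraries in 1 fit, log2 fold enrichment, regions in all 6 libraries, equal numbers of top peaks, a -log10 q-value of at least 5, presence in 2 of 3 libraries, merging within 100 bp, start sites only, and leaving out each library.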

Additional observations from a re-analysis of the deposited data

How the results depend on the processing

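No member region passed the limma threshold in any of the 5 comparisons or the F test under any of 70 alternatives, and the smallest adjusted p of a member was 0.0706, for the Rab5 ASO against PFF with all 12 libraries in 1 fit. Leaving out each library in turn gave 0 called members in each, but few regions of any kind were then called: 0 of 72465 in the 3 comparisons without the Rab5 ASO, at most 995 for the Rab5 ASO against PFF, at most 35 for it against PBS and 277 to 2206 in the F test. With the replicate block the count of called members was also 0 in every comparison. Same-numbered libraries deviated together with correlations of 0.01 to 0.08. These were small but each above those of differently numbered libraries in the same comparison, which ran from -0.07 to 0.01. The main fits did not pair libraries by number, and whether the numbers mark shared pregnancies was not tested. All 9 start-site regions kept a peak in 12 of 12 libraries with a -log10 q-value of at least 5 and with the same number of top peaks from each list.

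Gained and lost counts rest on 0 to 2 regions and moved easily. The percentages give the share of all regions under the same setting. With presence in 2 of 3 libraries, gains were 3 for PFF against PBS (4.32%), 1 for MLi-2 against PFF (1.84%), 2 for the Rab5 ASO against PFF (6.62%), 1 for MLi-2 against PBS (1.57%) and 1 for the Rab5 ASO against PBS (6.74%). Losses were 4 of 54 for MLi-2 against PFF (6.06%), 3 for the Rab5 ASO against PFF (5.69%) and 2 for the Rab5 ASO against PBS (3.94%). With the same number of top peaks, gains were 2 for PFF against PBS (1.01%), 2 for the Rab5 ASO against PFF (2.54%) and 1 for it against PBS (2.43%), with losses of 2 in the last of these (1.58%). With a -log10 q-value of at least 5, gains were 2 for the Rab5 ASO against PFF (2.39%) and 2 against PBS (2.64%), and losses were 0 for PFF against PBS (0.323%), 1 for the Rab5 ASO against PFF (2.31%) and 0 against PBS (0.963%). Within 1 kb of any annotated start site, a window that holds fewer regions, gains were 0 for PFF against PBS (0.78%) and 0 for the Rab5 ASO against PFF (0.864%), and losses were 0 for PFF against PBS (0.224%), 1 for the Rab5 ASO against PFF (1.26%) and 0 against PBS (0.578%). Without 1 library, the ranges were 1 to 2 gained (1.5% to 3.01%) and 1 to 2 lost (0.6% to 1.61%) for PFF against PBS, 0 to 1 (0.57% to 0.977%) and 0 to 2 (2.65% to 3.72%) for MLi-2 against PFF, 1 to 2 (3.17% to 4.45%) and 2 to 4 (2.42% to 3.73%) for the Rab5 ASO against PFF, 0 to 1 (0.363% to 1.12%) and 0 to 1 (1.02% to 2.37%) for MLi-2 against PBS, and 0 to 2 (3.03% to 5.27%) and 1 to 3 (1.31% to 2.72%) for the Rab5 ASO against PBS. Without PFF+Rab5 ASO replicate 3 losses were 4 of 57 against PFF (2.42%) and 3 of 52 against PBS (1.31%), the highest of these counts without 1 library. The cause of the moves in the counts was not tested.

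Of 27 start-site effects, 18 kept their sign without each library, counting a value that rounds to 0.00 as kept. Among these, that of Atp6v0a1 in PFF vs PBS ranged from -0.08 to 0.00. The effect of Atp6v1h in PFF vs PBS, at 0.00, ranged from -0.24 to 0.19. The ranges of the other 8 were -0.45 to 0.05 for Atp6v1e1 in PFF vs PBS; -0.04 to 0.17 for Atp6v1b2, -0.09 to 0.04 for Atp6v1d, -0.20 to 0.26 for Atp6v1e1, -0.12 to 0.12 for Atp6v0c and -0.12 to 0.15 for Atp6ap1 with MLi-2 against PFF; and -0.23 to 0.13 for Atp6v1e1 and -0.23 to 0.01 for Atp6v0d1 with the Rab5 ASO against PFF. Effects that kept their sign also moved in size, for example to between -0.28 and -0.05 for Atp6v0c with the Rab5 ASO against PFF, and to between 0.05 and 0.27 for Atp6v1b2 and between -0.46 and -0.22 for Atp6ap1 in PFF vs PBS. On the log2 scale the Atp6v1d effect of MLi-2 against PFF became 0.03. Pileups of 10 to 18 fragments limit the gained and lost calls.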
